A study of Homo sapiens with 3 samples.

Results

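Most genes that are accessible in a cell are accessible at their start. This account concerns the exceptions, protein-coding genes of 10 kb or longer whose start and whose far end, where the transcript stops, both carry a summit of accessible chromatin within 1 kb. Of 14343 protein-coding genes of that length in the RefSeq table, 852 met the rule (5.94%), 9981 had a summit at exactly 1 end and 3510 at neither. The 1704 ends of these 852 genes were covered by 1645 of the 65234 distinct intervals in the list, because 57 intervals served the ends of a pair of such genes and 1 interval served 3. The members were chosen from the summit positions themselves, so the count of 852 is a description of the rule, and every value below is given without a test.

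The data come from ATAC-seq, in which the Tn5 transposase cuts accessible DNA, on neurons made by expressing the neurogenic transcription factor NGN2 in KOLF2.1J, a human line of induced pluripotent stem cells in common use. There were 3 biological replicates, all of the same line, factor and age (14 days of differentiation), so the study has a single group, and 100000 cells were harvested per sample. The authors merged the replicates into 1 list of peaks, which has no value per sample, so no replicate spread exists for any value here. Where a spread over chromosomes is given, it describes how chromosomes differ within the pooled list. It says nothing about variation between replicates. The study as a whole sought regulatory elements of MAPT, the tau gene. MAPT was not a member: the end next to MAPT-AS1 had a summit 166 bp outside the gene, with a fold enrichment of 11.0, and the nearest summit to the other end was 25232 bp away.

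A gene's promoter lies around its transcription start, where general factors and sequence-specific activators keep nucleosomes off the DNA, and it is the usual site of strong accessibility. The far end of a gene, around the site of cleavage and polyadenylation, has no such standing requirement for open chromatin. A far end can be accessible because another promoter begins there, since genes often follow one another head to tail, or because an enhancer or insulator lies there. ATAC-seq alone does not tell these apart.

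Strand, and so the start, was known from the RefSeq promoter table for 714 of the 852 genes. The other 138 have no entry there and are described by their ends alone. An end was called shared when an end of any other annotated gene lay within 1 kb of it, and lone when none did. Of the 1704 ends, 704 were shared (41.3%, Wilson 95% confidence interval 39.0 to 43.7%) and 1000 were lone. Both ends were lone in 302 genes, both shared in 154, and 396 genes had an end of each kind.

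The promoters that best show what a shared far end can hold are those of the genes that begin at the 6 strongest far ends of this type. The far end of TMEM219 faces TAOK2, a kinase gene of the TAO family, and a second coding gene listed as LOC124903762. SPMIP4 faces CYCS, which encodes cytochrome c, XPOT faces TBK1, a kinase of innate immunity and autophagy, and RAB5B faces SUOX, the sulfite oxidase gene. PAFAH1B2 faces SIDT2, a lysosomal membrane protein gene, and CLK2 faces SCAMP3, a carrier membrane protein gene. The 250 bases before each start are given 5′ to 3′ in the direction of transcription, from RefSeq (GRCh38.p14). Capitals mark the 8 words searched for on both strands: the TATA box spelled TATAAA, the box spelled CCAAT, the GC box spelled GGGCGG, the ETS core spelled CCGGAAG, the core of the cAMP response element spelled TGACGT, the NRF1 core spelled TGCGCA, an E-box spelled CAGATG and an E-box spelled CAGCTG. Overlapping matches were joined.
TAOK2: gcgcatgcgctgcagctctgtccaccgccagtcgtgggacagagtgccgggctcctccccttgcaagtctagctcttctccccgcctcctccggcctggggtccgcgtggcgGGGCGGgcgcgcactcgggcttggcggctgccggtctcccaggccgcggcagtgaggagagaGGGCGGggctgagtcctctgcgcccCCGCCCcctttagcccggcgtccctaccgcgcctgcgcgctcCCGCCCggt
CYCS: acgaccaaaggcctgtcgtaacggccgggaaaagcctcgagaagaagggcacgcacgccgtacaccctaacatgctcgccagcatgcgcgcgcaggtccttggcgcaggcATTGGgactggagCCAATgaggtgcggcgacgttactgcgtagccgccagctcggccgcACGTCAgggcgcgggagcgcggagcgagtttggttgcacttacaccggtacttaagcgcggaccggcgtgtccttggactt
TBK1: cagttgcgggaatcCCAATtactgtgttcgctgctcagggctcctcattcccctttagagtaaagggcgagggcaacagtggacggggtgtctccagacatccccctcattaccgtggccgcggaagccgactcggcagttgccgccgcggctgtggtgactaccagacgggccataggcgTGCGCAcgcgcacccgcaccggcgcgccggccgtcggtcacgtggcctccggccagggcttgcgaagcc
SUOX: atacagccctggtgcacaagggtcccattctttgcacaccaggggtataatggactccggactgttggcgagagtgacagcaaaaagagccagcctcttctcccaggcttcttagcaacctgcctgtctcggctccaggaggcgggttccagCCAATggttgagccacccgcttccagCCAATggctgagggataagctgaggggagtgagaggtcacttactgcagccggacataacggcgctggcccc
SIDT2: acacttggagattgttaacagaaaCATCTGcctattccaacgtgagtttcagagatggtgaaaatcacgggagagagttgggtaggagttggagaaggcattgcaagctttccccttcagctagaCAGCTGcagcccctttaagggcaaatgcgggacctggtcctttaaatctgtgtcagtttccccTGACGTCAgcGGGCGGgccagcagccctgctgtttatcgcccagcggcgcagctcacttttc
SCAMP3: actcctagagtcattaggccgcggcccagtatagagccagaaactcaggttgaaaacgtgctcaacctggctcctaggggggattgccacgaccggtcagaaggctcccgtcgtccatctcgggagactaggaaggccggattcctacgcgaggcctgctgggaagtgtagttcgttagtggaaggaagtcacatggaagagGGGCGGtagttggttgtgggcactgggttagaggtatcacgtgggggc

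These stretches lie at chr16:29973618-29973867 on the plus strand (TAOK2), chr7:25125261-25125510 on the minus strand (CYCS), chr12:64451870-64452119 on the plus strand (TBK1), chr12:55997026-55997275 on the plus strand (SUOX), chr11:117178493-117178742 on the plus strand (SIDT2) and chr1:155262361-155262610 on the minus strand (SCAMP3). Their G+C content ran from 52.8% in SIDT2 to 75.2% in TAOK2. TAOK2 and SCAMP3 matched the GC box alone. CYCS held the CCAAT box and the core of the cAMP response element, TBK1 the CCAAT box and the NRF1 core, and SUOX the CCAAT box. SIDT2 held 4 of the words, the GC box, the core of the cAMP response element and both E-boxes. A match says only that the letters are there.

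These 6 far ends, chosen as the highest of their kind, lay above the median of accessible starts given below. The interval beyond TMEM219, at 29973234 to 29974294 on chromosome 16, reached 17.3 in fold enrichment, the authors' ratio of summit to local background, with 2358 tags at the summit (exact Poisson 95% interval 2264 to 2455). Its start end had 18.2 and 1249 tags. Tags are the sequenced ends piled up at the summit over the pooled replicates, recovered from the ratio and the p-value of each entry. Such intervals cover counting error only, because the libraries were amplified by PCR and no molecular identifiers are mentioned.

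At SPMIP4 the far end was the stronger of the pair, with a fold enrichment of 17.1 and 2567 tags at the CYCS start against 8.72 and 547 tags at its own start. The interval spans 25124844 to 25125949 on chromosome 7. XPOT, a tRNA export factor gene, had 16.3 at the far end and 14.5 at the start, and RAB5B, an endosomal GTPase gene, had 15.5 and 12.6. PAFAH1B2 had 15.5 at the far end and 14.9 at the start, and CLK2, a splicing kinase gene, 15.4 and 8.96. In 5 of these 6 genes the far end thus had the higher fold enrichment, but the 6 were picked for it. By tags the start end was the higher in 3 of these 5, XPOT (2699 at the start and 1839 at the far end), RAB5B (2810 and 1310) and CLK2 (1311 and 1244). PAFAH1B2 had 1095 and 1521.

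The share of far ends that were accessible differed with what lay beside them. Among all 11572 genes of known strand, members or not, a summit lay within 1 kb of 8673 start ends (74.9%) and of 947 far ends (8.18%). Far ends within 1 kb of another coding gene's start were accessible in 194 of 305 cases (63.6%, Wilson interval 58.1 to 68.8%). Far ends near another coding gene's far end were accessible in 93 of 965 (9.64%, interval 7.93 to 11.7%), those near a non-coding gene's end alone in 52 of 534 (9.74%, interval 7.50 to 12.5%), and lone far ends in 571 of 9557 (5.97%, interval 5.52 to 6.47%). For comparison, lone start ends were accessible in 5070 of 7516 cases (67.5%), and start ends beside another coding start, which include divergent promoters, in 1671 of 1760 (94.9%). Neighbouring ends can take the same summit, so shared ends are not all independent observations and their intervals do not allow for it.

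**Figure D1:**
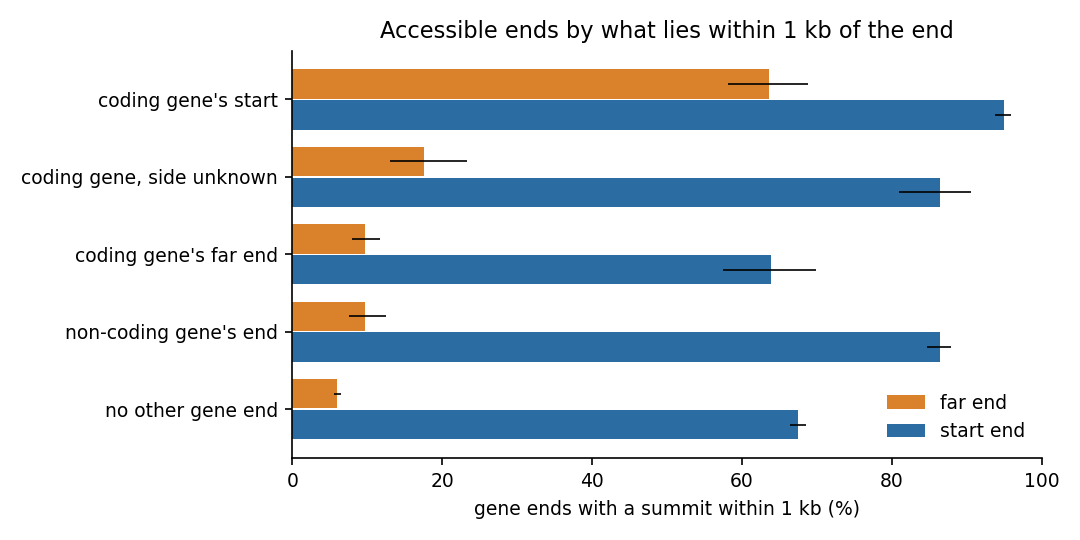
Share of gene ends with a summit within 1 kb, in percent, for all 11572 protein-coding genes of 10 kb or longer with known strand, by the kind of other gene end within 1 kb (a coding gene's start counts first where several kinds are present). Bars are start ends (blue) and far ends (orange) and lines are Wilson 95% intervals; far ends reach 63.6% beside another coding gene's start and 5.97% where no other gene ends.

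Whether the far end was accessible was also set beside the state of the start end. Lone far ends were accessible in 434 of 7151 genes whose start was accessible (6.07%, Wilson interval 5.54 to 6.65%) and in 137 of 2406 genes whose start was not (5.69%, interval 4.84 to 6.69%). For shared far ends the counts were 280 of 1522 (18.4%, interval 16.5 to 20.4%) and 96 of 493 (19.5%, interval 16.2 to 23.2%). The intervals overlapped in both pairs.

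Windows moved along the genome gave a scale for the lone ends. Around lone far ends, windows of 1 kb either side centred 2 to 20 kb outside the gene, with no gene end within 2 kb, held a summit in 4.71 to 5.64% of cases, and windows 2 to 20 kb inside the gene in 3.97 to 4.84%. At the far end itself the share was 5.97%, and 5.30% (Wilson interval 4.85 to 5.80%) where no other gene's end lay within 2 kb, which matches the condition set for the moved windows. Lone start ends behaved differently, with 67.5% at the end. At 2 kb the share was 15.3% inside the gene and 5.15% outside, and at 4 to 20 kb it was 4.22 to 4.64% inside and 3.54 to 4.75% outside. The windows of 1 gene overlap the same neighbourhood, so these shares are not independent.

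**Figure D2:**
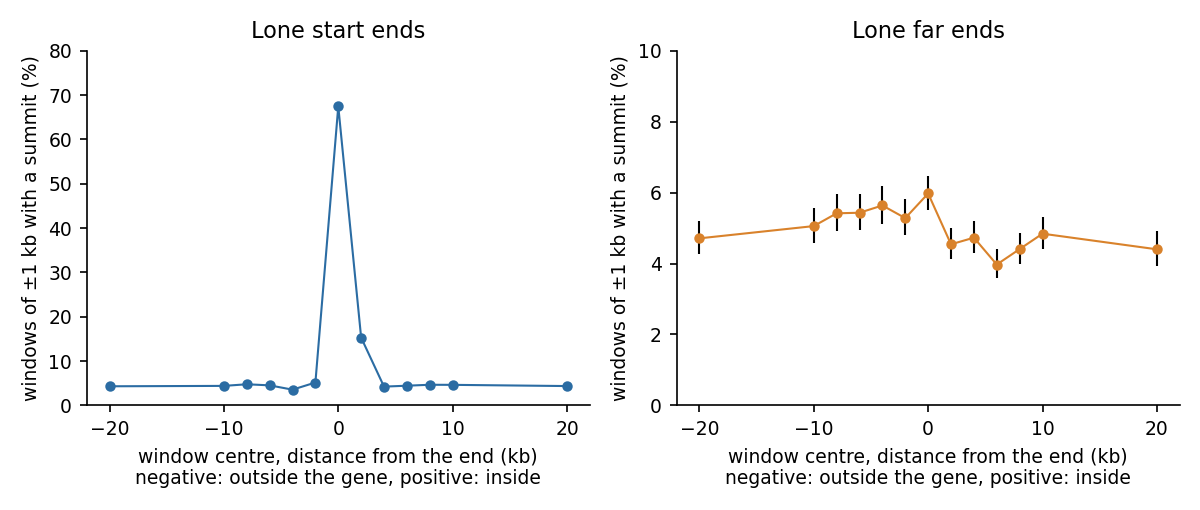
Share of windows of 1 kb either side that hold a summit, in percent, against the distance of the window centre from a lone start end (left) or a lone far end (right) in kb, over genes of known strand. Lines are Wilson 95% intervals and the vertical scales differ: lone start ends peak at 67.5% at 0 kb, whereas lone far ends have 5.97% at 0 kb and 3.97 to 5.64% elsewhere.

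Among the members, the 714 far ends of known strand divided into 434 lone ends, 152 at another coding gene's start, 59 at another coding gene's far end, 33 at a coding gene of unknown strand and 36 at non-coding genes alone. The 714 start ends divided into 394 lone ends and 320 shared ones, of which 147 lay beside another coding start and 132 beside non-coding genes alone. Start ends beside another coding start include pairs that point away from each other and nested pairs such as ARPIN and ARPIN-AP3S2, which share a start.

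Most summits at far ends beside a coding start lay close to that start. In 139 of the 152 genes the neighbour nearest to the end ran in the same direction, head to tail, and in 13 it ran in the opposite one. In the head-to-tail pairs the summit lay a median of 72 bp from the neighbour's start and 498 bp from the gene's own far end. It was nearer to the neighbour's start in 120 of the 139. Over all 152, 114 summits (75%) lay within 250 bp of the neighbour's start. For scale, 550 of the 714 start ends of the members (77.0%) had their summit within 250 bp of the gene's own start.

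At lone far ends the summits had no fixed place. They lay within 250 bp of the far end in 84 of 434 genes (19.4%), and outside the gene in 258 (59.4%). The bin from 200 bp outside to the end itself held 61.5% of the summits at start ends and 9.91% of those at lone far ends. The outermost bin, 800 to 1000 bp outside, was the fullest for lone far ends, with 83 summits. In 56 of the 434 genes the summit itself lay within 1 kb of another gene's end or of a start in the promoter table, although the far end did not, and 48 of these 56 summits were outside the gene. Examples were CARD8, PSMA5 and ARPIN. The summit of PSMA5, a proteasome subunit gene, was 149 bp from a listed start of SORT1, the sortilin gene. That of ARPIN, an inhibitor of the Arp2/3 complex, was 64 bp from a listed start of AP3S2. The other 378 summits were free of any such neighbour and are called free far ends below.

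**Figure D3:**
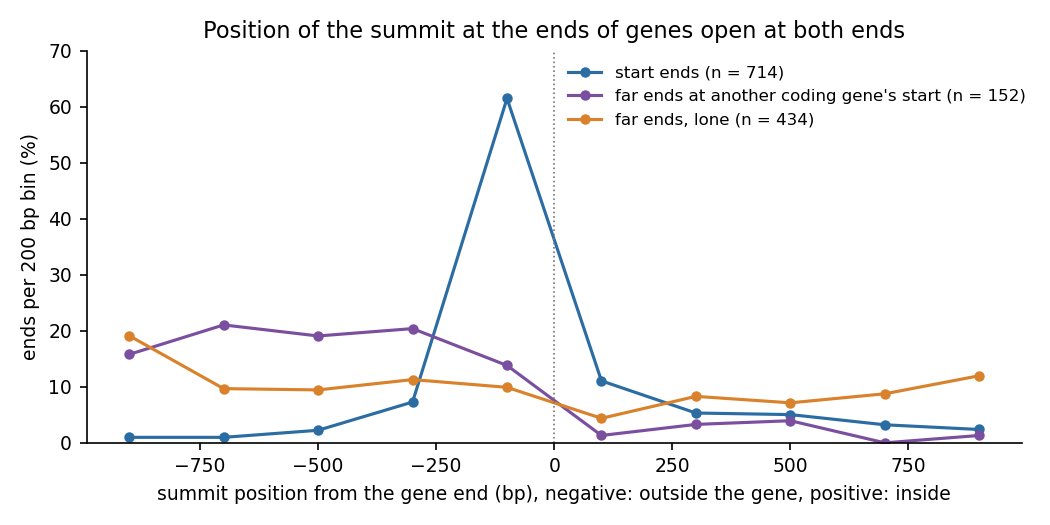
Position of the summit relative to the gene end in bp, negative outside the gene and positive inside, as the percentage of ends per bin of 200 bp, for members of known strand. Start ends peak in the bin just outside the gene (61.5%), far ends at another coding gene's start lie outside the gene in 90.1% with no single peak, and lone far ends show no peak at the end.

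Strength followed the same division. The median fold enrichment was 12.3 at start ends beside another coding start (n = 147), 9.33 at lone start ends (n = 394) and 10.0 at far ends beside a coding start (n = 152, quartiles 6.51 and 12.7). It was 4.89 at free far ends (n = 378, quartiles 3.65 and 6.47) and 6.44 at far ends beside non-coding genes (n = 36). At far ends beside another coding far end it was 4.34 (n = 59 ends in 42 distinct intervals, as neighbouring ends can take the same summit). The 48428 distal intervals of the list, whose strongest summit is more than 1 kb from any gene end, had a median of 5.11 (quartiles 3.95 and 7.02). Each distal interval was taken at its strongest summit. Each gene end was taken at the strongest summit within 1 kb, which need not be the strongest of its interval. With that limit, the quartiles of free far ends overlapped those of distal intervals. The median of far ends beside a coding start lay among those of start ends. By tags the order of free far ends and distal intervals was the opposite one, with medians of 224.5 at free far ends, 201 in distal intervals, 875.5 at far ends beside a coding start and 837 at lone start ends, and the latter pair again lay well above the former. The intervals had median widths of 793.5, 795, 1236.5 and 1319 bp in that order.

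The median of all 8673 accessible start ends, 11.0, served as a mark of promoter strength. Of distal intervals, taken at their strongest summit, 4.24% reached it. Among the members it was reached by 65 of 152 far ends beside a coding start (42.8%, Wilson interval 35.2 to 50.7%) and by 8 of 378 free far ends (2.12%, interval 1.08 to 4.12%). These shares depend on which summit is taken. For all lone far ends the share was 3.23%, and 3.49% when only the strongest summit of each interval counted. It was 9.25% when the strongest summit of any overlapping interval counted, wherever it lay.

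**Figure D4:**
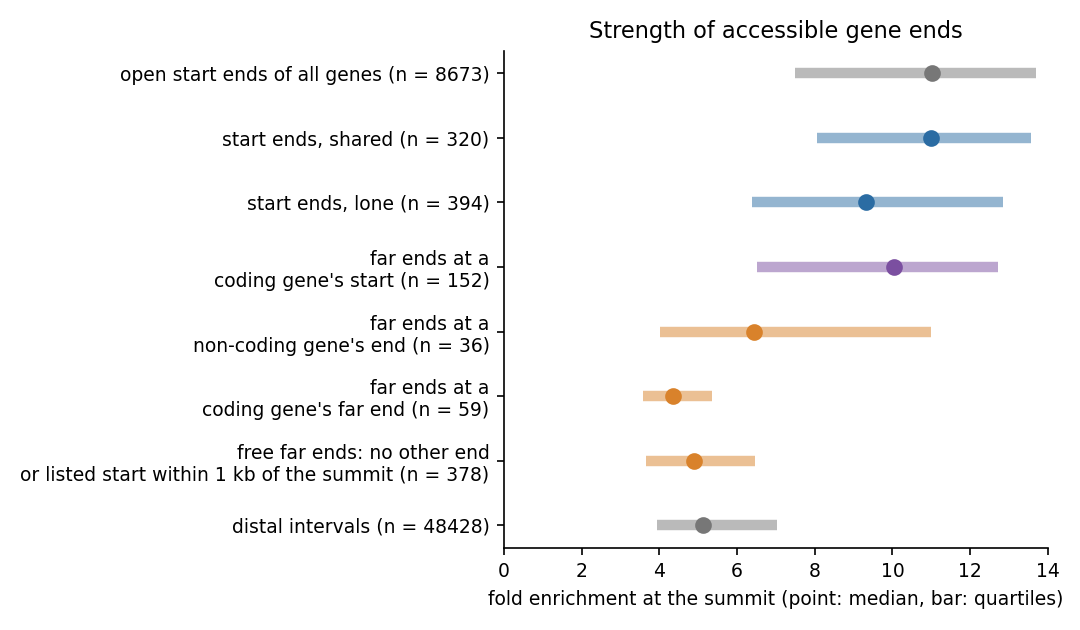
Median (point) and quartiles (bar) of fold enrichment at the summit for the members' ends by class, with distal intervals and all open start ends in grey. Distal intervals are shown at their strongest summit and gene ends at the strongest summit within 1 kb. Far ends at a coding gene's start (10.0) lie with the start ends, and far ends with no other gene's end or listed start within 1 kb of the summit (4.89) lie with the distal intervals (5.11).

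Over all 1704 ends the median fold enrichment was 9.60 at shared and 6.28 at lone ends, a difference of 0.61 on the log2 scale. By chromosome the difference averaged 0.55 ± 0.33 (SD over chromosomes, n = 22 autosomes) and was positive on 21 of them. The exception was chromosome 13, at -0.44, with 9 shared and 17 lone ends. In tags the medians were 846.5 and 354, a log2 difference of 1.26. The difference was present within start ends, at 11.0 against 9.33, and within far ends, at 7.17 against 4.89. It varied with the neighbour. Shared start ends had 12.3 beside a coding start, 10.1 beside non-coding genes, 9.38 beside a coding gene of unknown strand and 9.32 beside a coding far end. For shared far ends the medians in that order were 10.0, 6.44, 6.23 and 4.34, the last below that of lone far ends. Members made up 3.25% of long coding genes on chromosome 4 and 8.48% on chromosome 17, with a mean of 5.88 ± 1.28% (SD, n = 22 autosomes).

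Within a gene the start end was usually the stronger. The log2 ratio of start over far end had a median of 0.71 over the 714 genes (quartiles 0.10 and 1.40), and the start end was higher in 557 (78.0%). The chromosome medians averaged 0.79 ± 0.23 (SD, n = 21 autosomes, chromosome 8 having no strand here), from 0.48 on chromosome 19 to 1.21 on chromosome 13. Where the far end met another coding start the median ratio fell to 0.19, and the start end was higher in 96 of 152 genes (63.2%). Where the far end was free it was 0.85, and the start end was higher in 319 of 378 (84.4%). By tag counts the corresponding medians were 0.30 and 1.80.

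**Figure D5:**
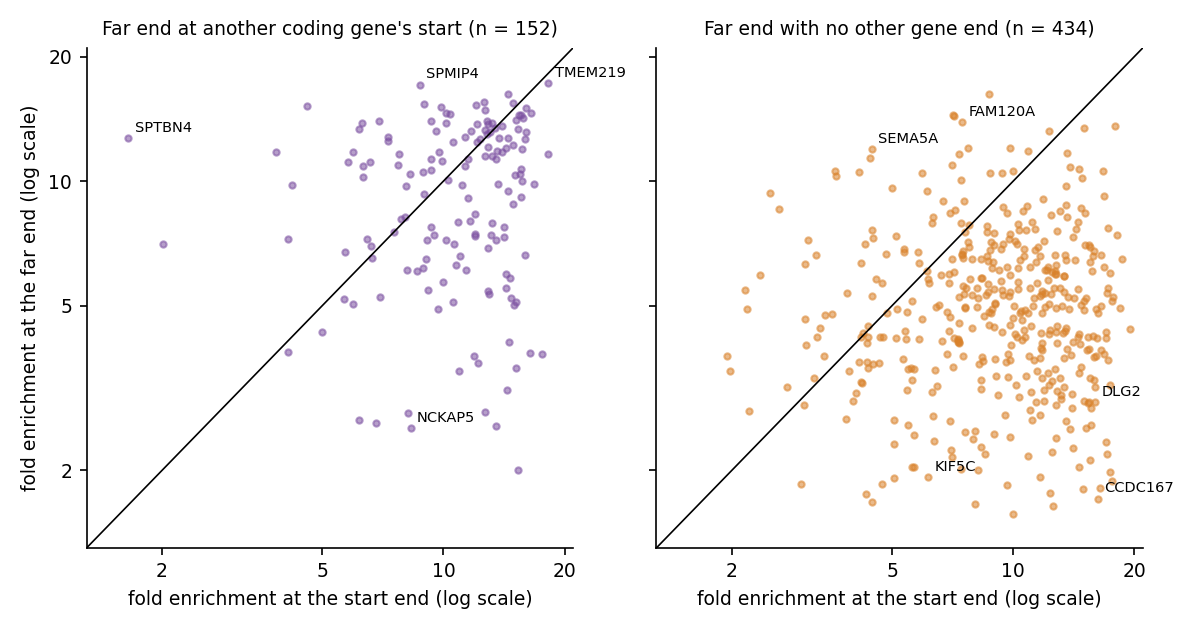
Fold enrichment at the far end against that at the start end of the same gene, both on log scales, for members whose far end lies at another coding gene's start (left, n = 152) or is lone (right, n = 434); the diagonal marks equal values. Points scatter around the diagonal on the left and lie mostly below it on the right, where 367 of 434 genes have the stronger start end.

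The widest gaps in favour of the far end were found in SPTBN4, WIZ, SLITRK3, MXRA7 and SIN3A. SPTBN4, which encodes the beta-4 spectrin of axon initial segments, had a fold enrichment of 1.65 and 141 tags at its annotated start and 12.7 and 726 tags at its far end, 43 bp from the start of SHKBP1, a log2 ratio of -2.94. The start summit was 395 bp outside the gene and 861 bp from a listed start of BLVRB. WIZ, a zinc finger gene, had 3.54 and 14.4, with AKAP8L beyond its far end. SIN3A, the scaffold of a histone deacetylase complex, had 2.01 at the start and 7.06 at the far end, where the summit was 26 bp from the start of MAN2C1, yet its start collected 980 tags and its far end 604. MXRA7 had 4.21 and 14.9, with LOC105274304 beyond its far end. SLITRK3, a synaptic adhesion gene, alone among the 5 had a lone far end, at 2.48 and 9.38, while its tags were 312 and 323.

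The widest gaps in favour of the start were CCDC167, ATP5PO, SCAI, RNFT2 and NAP1L4. CCDC167 had 16.3 at the start and 1.71 at the far end, a log2 ratio of 3.25, and ATP5PO, a subunit gene of the mitochondrial ATP synthase, had 17.6 and 1.88. SCAI had 16.4 and 1.81, RNFT2 had 17.4 and 1.98, and NAP1L4, a histone chaperone gene, 14.9 and 1.80. The 5 far ends were all lone and rested on 71 to 176 tags. Those of CCDC167 and SCAI were not free: their summits lay 721 bp from an end of CMTR1 and 709 bp from a listed start of GOLGA1. At ATP5PO the 71 tags have an exact Poisson 95% interval of 55.5 to 89.6.

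The promoters of a pair of genes with a far end stronger than the start are given next in the same way, with SEMA5A as a gene with a free far end and SPTBN4 as a gene whose far end meets another start.
SEMA5A: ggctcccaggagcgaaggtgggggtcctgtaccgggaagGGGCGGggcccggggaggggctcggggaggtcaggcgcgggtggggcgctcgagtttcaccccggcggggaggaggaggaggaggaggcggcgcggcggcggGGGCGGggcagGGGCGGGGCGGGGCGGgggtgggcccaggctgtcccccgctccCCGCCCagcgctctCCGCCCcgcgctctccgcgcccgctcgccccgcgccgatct
SPTBN4: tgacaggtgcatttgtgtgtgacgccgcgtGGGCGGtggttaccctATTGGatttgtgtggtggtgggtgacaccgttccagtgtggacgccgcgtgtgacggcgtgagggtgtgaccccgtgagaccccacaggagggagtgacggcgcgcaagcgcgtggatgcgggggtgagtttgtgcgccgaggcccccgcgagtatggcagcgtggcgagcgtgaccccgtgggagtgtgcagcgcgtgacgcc

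The SEMA5A stretch lies at chr5:9546076-9546325 on the minus strand and has 82.0% G+C. The SPTBN4 stretch lies at chr19:40466751-40467000 on the plus strand and has 66.8% G+C. SEMA5A matched the GC box alone, and SPTBN4 the CCAAT box and the GC box. They held 33 and 28 CpG dinucleotides.

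Free far ends of promoter strength were few. After their values were seen, the 8 highest were taken for naming: P4HA2, FAM120A, SDHAF2, SEMA5A, POLR3GL, HPD, RTN2 and ITGA10. P4HA2, a subunit gene of collagen prolyl 4-hydroxylase, had 14.3 and 654 tags at its far end (chromosome 5 from 132190204 to 132190695, summit 226 bp inside the gene) and 7.11 and 525 tags at its start. FAM120A, which encodes an RNA-binding scaffold protein, had 13.9 and 1407 tags at its far end (chromosome 9 from 93566382 to 93567455, summit 540 bp beyond the gene) and 7.46 and 908 tags at its start. The nearest gene end to that summit was PHF2, at 9932 bp. SDHAF2, an assembly factor gene of succinate dehydrogenase, had 13.4 at the far end against 15.0 at the start.

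SEMA5A, an axon guidance gene of 511.0 kb, had 11.9 and 682 tags at its far end (chromosome 5 from 9034505 to 9035483) and 4.45 and 370 tags at its start. The summit lay 126 bp beyond the gene, 18909 bp from the nearest other gene end. POLR3GL, an RNA polymerase III subunit gene, had 11.8 at the far end and 10.9 at the start, HPD 11.7 and 13.6, RTN2, a reticulon gene, 11.6 and 7.35, and ITGA10, an integrin gene, 11.3 and 4.42. Of the 378 free far ends, 33 lay inside another protein-coding gene, and none of these 33 reached the promoter mark. The Wilson interval of that share, 0 to 10.4%, includes the 2.12% of all free far ends, so these 33 cannot be set apart.

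The other types of shared far end had their own leading members. Beside non-coding genes alone the highest were PITPNA (15.3, with PITPNA-AS1), MXRA7, CHD8 (14.1, with LOC107984643), GON4L (13.9), ZNF783 (13.6) and PDPK1 (12.7). GON4L and PDPK1 adjoin MSTO2P, named as a pseudogene, and LOC652276, and their values are uncertain where reads match related copies elsewhere. Beside another coding far end the highest were ZNF197 and the read-through gene ZNF660-ZNF197, which share 1 interval at 13.1, then PLCB3 (10.9, facing BAD), EXTL1 (10.1), ESRRA (9.77) and PPFIA3 (6.99). At ZNF197 the summit lay 23 bp from the start of ZNF35, and at ESRRA, an orphan nuclear receptor gene, 79 bp from a listed start of TRMT112. At PLCB3 the summit lay 450 bp from a listed start of GPR137.

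Members also followed each other. In 13 cases the interval at the far end of a member was the interval at the start of another member on the same strand, as for SPTBN4 and SHKBP1, EIF4G1 and FAM131A, CNN2 and ABCA7, INPP5B and MTF1, and SPAG16 and VWC2L. The 1 interval that served 3 members, on chromosome 5 from 141513046 to 141514613, lay at ends of PCDHGB6, PCDHGC3 and DIAPH1. The first 2 are clustered protocadherins, which share their last exons, so they are not separate observations.

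Length did not mark the members as long genes. Their median length was 36.5 kb (quartiles 19.7 and 69.3), against 46.7 kb for genes with 1 accessible end and 31.6 kb for genes with none. Members with a far end at a coding start had a median of 23.2 kb and those with a free far end 44.6 kb. Among the longest were DLG2 (2173 kb), MACROD2 (2058 kb), SPAG16 (1126 kb) and NCKAP5 (1003 kb). DLG2, the gene for the postsynaptic scaffold PSD-93, had a fold enrichment of 16.0 and 2387 tags at its start and 2.93 and 146 tags at its lone far end. MACROD2 had 12.5 and 6.02. SPAG16 had 14.8 at its start and 12.2 at its far end, 39 bp from the start of VWC2L, and NCKAP5 had 8.30 and 2.53.

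Gene lists for the labelled cell type and its alternatives gave 19 members among 256 listed genes of 10 kb or longer (7.42%), beside 5.94% over all such genes. The pan-neuronal list had 18 genes of that length, of which 15 were accessible at 1 end, 1 at both and 2 at neither. The pluripotency list had 4 of 6 accessible at 1 end and none at both, the glial list 5 of 11 and none, and the non-neural list 1 of 10 and none. Accessibility is not expression, and an accessible start in the pluripotency list does not show that the gene was transcribed. Counts per list were 4 of 25 for synaptic vesicle and active zone genes (SV2B, BSN, PPFIA2, PPFIA3), 3 of 36 for axon guidance (UNC5B, SEMA5A, PLXNA2), 3 of 32 for ion channels (KCNA2, HCN4, GRIN1) and 3 of 35 for chromatin regulators (CHD7, CHD8, KMT2D). They were 2 of 26 for microtubule and motor genes (MAP1B, KIF5C), 1 of 7 for neural progenitor genes (MEIS1), 1 of 23 for neuronal transcription factors (EBF1) and 1 of 27 for mitochondrial and housekeeping genes (EIF4G1). With counts of 0 to 4 per list, no list can be set apart from the background of 5.94%.

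Among the listed members with a shared far end, values ranged widely. KMT2D, a histone H3 lysine 4 methyltransferase gene, had 14.5 at its far end, 17 bp from the start of PRKAG1, and 10.4 at its start. CHD8, a chromatin remodeller gene linked to autism, had 16.7 at its start. EIF4G1, a translation initiation factor gene, had 9.97 at the start and 5.69 at the far end, 18 bp from the start of FAM131A. BSN, the gene for the active zone protein bassoon, had 10.1 and 7.19, with APEH beyond it, and PPFIA3, a liprin gene, had 9.98 at its start.

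Among the listed members with lone far ends, some had similar fold enrichment at both ends but more tags at the start. SV2B, a synaptic vesicle glycoprotein gene, had 6.10 and 249 tags at its start and 6.06 and 187 tags at its far end. KCNA2, a potassium channel gene, had 7.52 and 6.53, with 297 and 242 tags. HCN4, a pacemaker channel gene, had 7.14 and 6.02, with 619 and 340 tags. PLXNA2, a semaphorin receptor gene, had 6.91 and 5.97, with 861 and 234 tags, a log2 ratio of 1.88 in tags. STMN2, a microtubule regulator expressed in neurons, had 5.94 and 5.83 at its lower and upper ends, with 550 and 347 tags. EBF1, a transcription factor gene, had 11.7 at the start and 6.59 at the far end, and MAP1B, a microtubule-associated protein gene, 8.72 and 4.83. PPFIA2 had 8.19 and 5.23 and KIF5C, a kinesin heavy chain gene, 6.15 and 1.92, the latter on 78 tags. UNC5B, GRIN1 and CHD7 had no listed strand. UNC5B, a netrin receptor gene, had 10.8 and 4.30 at its lower and upper ends, and CHD7, a chromatin remodeller gene, 11.0 and 2.92. GRIN1, a subunit gene of NMDA receptors, had 3.75 at its lower end and 5.12 at its upper end. That upper end was shared with LRRC26 and MIR3621, and its summit lay 611 bp from a listed start of LRRC26. MEIS1, a homeobox gene, had 6.18 at its start and 4.36 at its far end, which lay beside LINC01798.

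Base composition was compared for the promoters of the members and of other genes. A promoter sequence from 250 bases before to 50 after the outer start was listed for 642 of the 852 members and for 9795 of all 14343 genes. Median G+C content was 67.3% in members, 66.0% in genes accessible at the start alone and 52.0% in genes accessible at neither end. The ratio of observed to expected CpG had medians of 0.85, 0.85 and 0.28 in that order. Genes accessible at the far end alone (178 with a sequence) had 54.7% and 0.32, near the genes accessible at neither.

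The 142 listed promoters of coding genes that begin at the far ends of members had 64.7% G+C and an observed to expected ratio of 0.82. The GC box occurred in 78.9% of them, in 76.8% of the members' own promoters, in 72.1% of those of genes accessible at the start alone and in 63.0% of all. The ETS core occurred in 27.5% of them, in 17.4% of members' promoters, in 19.2% of those of genes accessible at the start alone and in 15.7% of all, so the members' share lay below that of genes accessible at the start alone. In the same order of 4 groups, the TATA box occurred in 4.93%, 4.52%, 4.96% and 7.24%, and the CCAAT box in 38.0%, 37.2%, 35.8% and 35.9%. For the E-box CAGATG, a form bound by proneural factors, the shares were 9.86%, 9.19%, 8.60% and 10.9%, and for CAGCTG 13.4%, 18.4%, 16.9% and 18.0%. The core of the cAMP response element was present in 10.6%, 11.8%, 11.8% and 10.2%, and the NRF1 core in 11.3%, 13.6%, 14.6% and 12.2%.

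Members just inside the limit of 1 kb were close to genes just outside it. Just inside it were far ends of SERTM1 (nearest summit at 997 bp, fold enrichment 6.58) and PER1 (996 bp, 3.81) and an end of URB2 (997 bp, 2.44). Just outside it were the far ends of GPR63 (1002 bp, 2.94), MLLT3 (1002 bp, 3.15) and STC2 (1002 bp, 6.65).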

How the data were processed

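ATAC-seq was done on 3 samples of 1 group, and 1 peak list was deposited for all of them, named in the labels as the optimal set by irreproducible discovery rate. The build is hg38, per the submitters' processing notes. Aligner, peak caller and filters are not given in the sources used here. The list holds the authors' fold enrichment (a linear ratio per summit), the deposited −log10 p, and a deposited score of 540 to 1000. No value per sample exists, so the depth per replicate is unknown.

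The 145092 entries form 65234 distinct intervals. A gene end was called accessible when any summit lay within 1 kb of it, and took its values from the summit with the highest −log10 p there. Tag counts (58 to 3783, median 189) were recovered from the ratio and −log10 p from a Poisson tail, adding 1 to tags and background, with a largest misfit of 0.00079. At the members' ends they ran from 64 to 3783, and counting error at the median was 4.30%. Gene ends came from a RefSeq table (GRCh38.p14), and strand and promoters from its promoter table. Strand was listed for 80.7% of the long coding genes.

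Wilson and exact Poisson intervals are at 95%. No test was run. Members, gene lists and alternatives were chosen with earlier results of these data known. Named genes follow a rule: the 6 highest far ends per class, the 5 longest, the 5 widest start-to-far ratios each way, listed genes, the ends nearest the limit, intervals shared by 3 or more members, and MAPT. A result that this rule names is not reported here. Alternatives were other windows, the strongest summit alone, any overlap, scores of at least 830 and of 1000, genes of 20 kb or longer, coding neighbours alone, no read-through genes, and tag counts. Another, by summit position, was added after seeing the data. Code was tested on simulated data. Python 3.11.15, numpy 2.4.6, scipy 1.17.1, pandas 2.3.3 and matplotlib 3.10.9 were used.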

Additional observations from a re-analysis of the deposited data

How the results depend on the processing

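Of 50 recomputed values for 5 results, 40 stayed within the limit set for them and 10 moved. The limit was 1.5 times for a count, the Wilson interval for a share and 1 SD over autosomes for a log2 difference. A change of sign was possible for the log2 results alone, and 0 occurred. With coding neighbours alone, the gene count and the start-to-far ratio could not change, so their staying says nothing about stability. The number of genes accessible at both ends, 852, was 470 with a window of 500 bp and 1527 with 2 kb, as the windows admit less or more sequence, and 634 to 1050 under the other alternatives that change it. The share of shared ends, 41.3%, was 44.8% with 500 bp, 35.8% with 2 kb and 29.2% with coding neighbours alone. It was 46.5% when a summit within 1 kb of another gene's end or listed start counted as shared, an alternative chosen after seeing the data. The share of lone far ends at promoter strength, 3.23%, rose to 10.2% with 2 kb and to 9.25% with any overlap, which takes the strongest summit of an interval wherever it lies. The log2 difference between shared and lone ends, 0.61, ranged from 0.51 to 0.65 in fold enrichment and was 1.26 in tags. The median log2 ratio of start over far end, 0.71, ranged from 0.57 to 0.78 and was 1.40 in tags. Fold enrichment divides tags by the local background, so a higher background lowers it. Tag counts are not divided by the background, so the measures differ where the background differs. Median background, in tags, was 89.9 at start ends and 56.2 at far ends, and 86.6 at shared ends and 62.3 at lone ends. Why the background differed was not tested.

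No paired analysis was possible because all values are pooled over the single group, and no replicate was left out because none has values of its own. For 138 members no strand was listed. Regions below the threshold of the list were not analysed here.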
